A study of Mus musculus with 4 samples.

Results

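The 1.6 Mb interval of mouse chromosome 7 described here, chr7:10500001-12100000 in build mm9, was chosen because it holds the Zscan4 gene cluster, and its members are all CCGG sites with a position in it. These are 804 of the 1594137 CCGG sites measured, in 16 steps of 100 kb. DNA methylation was read by HELP tagging, in which genomic DNA is cut with HpaII, which needs an unmethylated CG in CCGG, or with MspI, which cuts CCGG in either state, and a short tag beside each cut is sequenced. A site with HpaII tags well below its MspI tags is one that was mostly methylated.

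The cells were MC1-ZE7, a mouse embryonic stem cell line of strain 129S6/SvEvTac at passage 31, which carries the fluorescent protein Emerald under the Zscan4c promoter and was grown without feeders in medium with serum and LIF. The fraction sorted as Emerald-high (Em+ high) was compared with the fraction sorted as Emerald-negative (Em-), to ask whether cells with an active Zscan4c promoter are methylated differently. Both fractions come from 1 line and carry the reporter, so a tag from the reporter's copy of the promoter region could not be told apart from a tag of the cluster itself. Each fraction had 1 HpaII and 1 MspI library, so no difference below has a replicate check. The Emerald-high libraries held 5662614 tags with HpaII and 9372711 with MspI, and the Emerald-negative ones 9535691 with HpaII and 9307616 with MspI.

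Zscan4 genes encode nuclear proteins with a SCAN domain and zinc fingers. They are transcribed in the mouse embryo when its own genome is first switched on and, at any time, in a small share of the cells of an embryonic stem cell culture, where they are known for a role in telomere maintenance. The family sits as tandem copies of nearly the same sequence. A short tag from such copies can match several of them, which bears on any count made there.

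In the RefSeq gene order of assembly GRCm38.p6, 9 Zscan4 genes lie in a row: Zscan4a, Zscan4b, Zscan4c, Zscan4-ps1, Zscan4d, Zscan4e, Zscan4f, Zscan4-ps2 and Zscan4-ps3. RefSeq lists 4 of them as protein coding (Zscan4b, Zscan4c, Zscan4d and Zscan4f) and 5 as pseudogenes. On one side of the row are Gm30645, Zik1, which encodes a zinc finger protein, 4 vomeronasal receptor genes (Vmn1r68, Vmn1r69, Vmn1r70 and Vmn1r71) and Nlrp4b. Beyond Gm30645 lie further vomeronasal receptors (Vmn1r66, Vmn1r67, Vmn2r51 and Vmn2r52), which detect pheromones, and Nlrp4d.

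No mm9 annotation was used here, so the interval was tied to this order through sequence: the spacing of CCGG in RefSeq promoters (250 bases before to 50 after the gene start) was looked for among the measured mm9 positions. The 4 CCGG of the Gm30645 promoter had 2 matches over the genome. Of these, 1 was on chromosome 7, at mm9 positions 11056687 to 11056892 in step 6, and was used here. The promoters of Zscan18, Zbtb45 and Ube2m, farther along the chromosome, had 3, 2 and 1 matches over the genome, with 1 each on chromosome 7. Those lay at the same distances from Gm30645 as in GRCm38 (2332317, 2538492 and 2566294 bases). On the other side, the promoters of Vmn2r29 and Clcn4 matched -3825726 and -3804446 bases from Gm30645 in mm9 but lie -3193088 and -3171808 bases from it in GRCm38, so the builds differ there and the genes of the first 6 steps were not placed. The Zscan4 row follows Gm30645 in this direction, and the interval ends 1.04 Mb past the match. In GRCm38 the promoters of Zscan4b, Zscan4c, Zscan4d and Zscan4f lie 433.7, 534.2, 694.8 and 926.4 kb from that of Gm30645. Steps 7 to 16, the last 10, are therefore the ones that can hold the cluster. In GRCm38, Zik1, 4 vomeronasal receptor genes and Nlrp4b lie between Gm30645 and Zscan4a, so the match is not an edge of the cluster. The first 6 steps lie before and around the match, and step 6 runs on past it to 11100000. GRCm38 has further vomeronasal receptors before Gm30645, so such genes lie on both sides. The last pseudogenes were not placed and may lie past the end.

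The sequences below, from RefSeq on GRCm38.p6 and written 5′ to 3′ along each gene's strand, are the promoter that placed the interval, with its CCGG in capitals, and the promoters of Zscan4b and of Zscan4c, which drives the reporter, with each CG in capitals.
Gm30645, chr7:10471267-10471566, minus strand: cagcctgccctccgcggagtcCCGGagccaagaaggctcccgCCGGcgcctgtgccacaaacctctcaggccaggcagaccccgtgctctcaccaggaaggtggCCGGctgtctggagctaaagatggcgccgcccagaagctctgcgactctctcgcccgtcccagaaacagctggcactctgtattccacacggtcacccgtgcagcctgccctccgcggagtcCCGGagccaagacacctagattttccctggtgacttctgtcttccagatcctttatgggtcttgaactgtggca
Zscan4b, chr7:10905001-10905300, minus strand: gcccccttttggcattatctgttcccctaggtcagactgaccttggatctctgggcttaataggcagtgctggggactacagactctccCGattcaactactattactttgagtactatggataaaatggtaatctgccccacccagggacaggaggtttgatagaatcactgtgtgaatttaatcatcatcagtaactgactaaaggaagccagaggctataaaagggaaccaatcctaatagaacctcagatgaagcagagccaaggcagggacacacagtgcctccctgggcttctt
Zscan4c, chr7:11005495-11005794, plus strand: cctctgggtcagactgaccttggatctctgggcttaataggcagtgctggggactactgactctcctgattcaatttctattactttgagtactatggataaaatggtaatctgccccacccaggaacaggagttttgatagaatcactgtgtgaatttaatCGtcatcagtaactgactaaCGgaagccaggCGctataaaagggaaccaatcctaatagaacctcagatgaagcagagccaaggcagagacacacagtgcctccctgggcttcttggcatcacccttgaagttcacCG

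None of the 4 Zscan4 promoters (Zscan4b, Zscan4c, Zscan4d and Zscan4f) holds a CCGG in these 300 bases, while 52.8% of 32851 RefSeq promoters of the same length do. HELP tagging therefore gives no reading inside them, and every value below comes from the surrounding DNA. They hold few CG of any kind: 1 in Zscan4b, 4 in Zscan4c, 3 in Zscan4d and 3 in Zscan4f. All 4 hold TATAAAA, which was searched on both strands and is found in 5.48% of all promoters. Over the aligned bases Zscan4c and Zscan4f were 99.3% identical and Zscan4b and Zscan4d 97.7%, and the other pairs lay between 95.3% and 97.4%. A match of letters is a description and not evidence that a factor binds.

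Relative to the average site of its library, the interval was cut less by HpaII in both fractions, and somewhat more in Emerald-high than in Emerald-negative cells. It held 1824 HpaII and 4069 MspI tags in Emerald-high cells, against 2391 HpaII and 3846 MspI tags in Emerald-negative cells. The level, log2 HpaII/MspI on scaled tags, was -0.43 (95% counting interval -0.51 to -0.35) in Emerald-high cells, against -0.72 (-0.79 to -0.65) in Emerald-negative cells, where 0 is the average over all sites. In 525 other autosomal 1.6 Mb windows of similar CCGG density the median levels were -0.15 in Emerald-high cells, against -0.31 in Emerald-negative cells. The log2 difference, Emerald-high minus Emerald-negative, was 0.29 (0.18 to 0.40). The intervals cover counting error only, and tags carry no molecular identifiers. The MspI libraries, whose cutting ignores methylation, differed by a log2 of 0.07 (0.01 to 0.14), and the HpaII libraries alone by 0.36 (0.27 to 0.45).

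Part of the interval could not be read. HpaII tags were found at 363 sites (45.1%) in each fraction and MspI tags at 456 sites (56.7%) in each, while over all sites the shares were 55.7% for HpaII in Emerald-high cells, 53.7% for Emerald-negative HpaII and 69.5% for MspI in both. No MspI tag fell on 327 sites (40.7%), against 26.5% of all sites. By the number of CCGG within 500 bp, 313 sites stood alone (called isolated here), 401 were in groups of 2 to 4, 75 in groups of 5 to 9 and 15 in groups of at least 10 (dense, the spacing of CpG islands). Dense sites thus made up 1.87% of the interval, against 8.17% of all sites. The 15 dense sites form 1 cluster, chr7:11056809-11057715, at the Gm30645 match. None had a tag in any of the 4 libraries, MspI included, while 63.4% of all dense sites had a tag. For independent sites 0 of 15 would allow a share of up to 20%, but the sites of 1 cluster are not independent. The only tagged CCGG of the Gm30645 promoter was at 11056687, the last in the sequence printed above, which follows the minus strand. It had 3 HpaII and 1 MspI tags in Emerald-high cells, against 0 and 2 in Emerald-negative cells. The methylation of this dense cluster could therefore not be read. The sites of this cluster recur at a fixed spacing: each lay 205 to 206 bases from the third after it. The cause of the missing tags was not tested.

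HpaII cutting differed between the first 6 steps, which end with the one holding the Gm30645 match, and the last 10. The first 6 steps were cut more than the library average in both fractions, and 9 of the last 10 less. A level below 0 is common: the median of all tested 100 kb bins was -0.27 in Emerald-high cells, against -0.59 in Emerald-negative cells. Step 1 held 153 HpaII and 191 MspI tags in Emerald-high cells, against 244 and 222 in Emerald-negative cells. Step 2 held 102 HpaII and 139 MspI tags in Emerald-high cells, against 139.7 and 126 in Emerald-negative cells. Step 3 held 182 HpaII and 265 MspI tags in Emerald-high cells, against 276 and 263 in Emerald-negative cells. These steps lie before the match, on the side where the builds differ and GRCm38 has further vomeronasal receptors. Step 4 held 107 HpaII and 164 MspI tags in Emerald-high cells, against 165 and 131 in Emerald-negative cells. Step 5 held 133 HpaII and 164 MspI tags in Emerald-high cells, against 203 and 172 in Emerald-negative cells. Step 6 held 158.5 HpaII and 189.5 MspI tags in Emerald-high cells, against 216 and 200.5 in Emerald-negative cells. The level was above 0 in both fractions in 6 of these 6 steps, from 0.10 to 0.47 in Emerald-high cells, against 0.03 to 0.30 in Emerald-negative cells. The counting interval of the level included 0 in each of these steps in Emerald-negative cells, and in steps 2, 3 and 4 in Emerald-high cells.

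Past the Gm30645 match the levels were lower. Step 7 held 73.5 HpaII and 153 MspI tags in Emerald-high cells, against 87.5 and 152 in Emerald-negative cells. Step 8 held 82.0 HpaII and 112 MspI tags in Emerald-high cells, against 141 and 126 in Emerald-negative cells. Step 9 held 77.5 HpaII and 226 MspI tags in Emerald-high cells, against 87.7 and 189 in Emerald-negative cells. Of these, step 8 alone stayed near the levels of the first 6, at 0.28 in Emerald-high cells, against 0.13 in Emerald-negative cells. Step 10 held 116 HpaII and 384 MspI tags in Emerald-high cells, against 90.0 and 337 in Emerald-negative cells. Step 11 held 92.2 HpaII and 252 MspI tags in Emerald-high cells, against 114 and 277 in Emerald-negative cells. Step 12 held 103 HpaII and 382 MspI tags in Emerald-high cells, against 90.3 and 335 in Emerald-negative cells. Steps 10 and 12 had levels of -0.99 and -1.17 in Emerald-high cells, against -1.94 and -1.93 in Emerald-negative cells, where these were the lowest of the interval. Step 13 held 102 HpaII and 353 MspI tags in Emerald-high cells, against 115 and 319 in Emerald-negative cells. Step 14 held 159 HpaII and 534 MspI tags in Emerald-high cells, against 184 and 454 in Emerald-negative cells. Step 15 held 117 HpaII and 301 MspI tags in Emerald-high cells, against 146 and 309 in Emerald-negative cells. Step 14 held the most MspI tags of any step. Step 16 held 67.2 HpaII and 262 MspI tags in Emerald-high cells, against 91.4 and 236 in Emerald-negative cells. Over the last 10 steps the levels ran from -1.24 to 0.28 in Emerald-high cells (median -0.90), against -1.94 to 0.13 in Emerald-negative cells (median -1.32), and 8 of 10 lay below -1 in Emerald-negative cells. For all tested 100 kb bins the lower quartile was -0.80 in Emerald-high cells, against -1.33 in Emerald-negative cells.

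**Figure D1:**
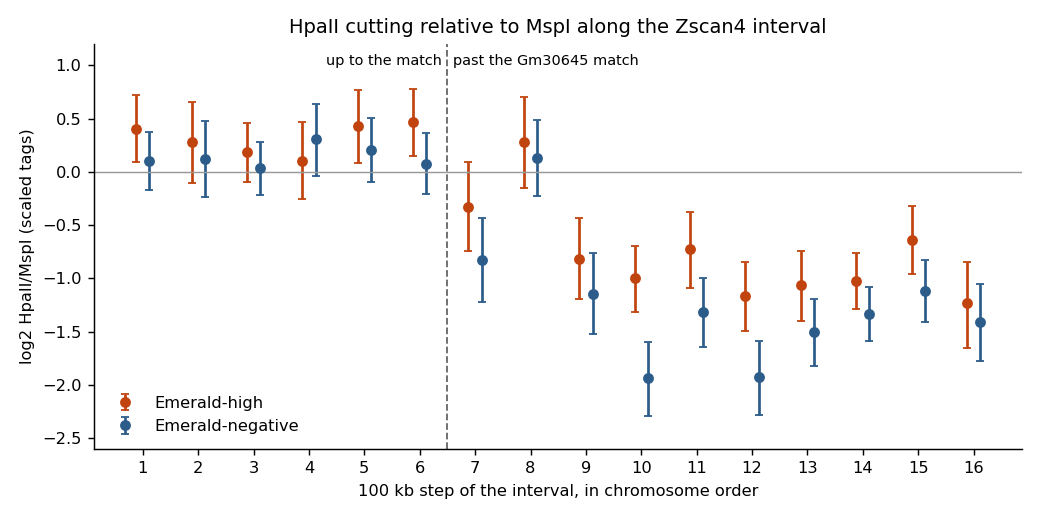
Log2 HpaII/MspI on tags scaled to library totals (vertical axis) in each 100 kb step of the interval (horizontal axis), in Emerald-high and Emerald-negative cells, with 95% counting intervals and 1 library per enzyme and fraction. The values of the first 6 steps, the last of which holds the Gm30645 match, lie above 0 in both fractions. Of the 10 steps after them, 9 lie below 0 in both. The Emerald-negative intervals of the first 6 steps all include 0. The median of all tested 100 kb bins was -0.27 in Emerald-high cells, against -0.59 in Emerald-negative cells.

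The contrast between the parts was wide. The 247 sites of the first 6 steps held 835 HpaII and 1112 MspI tags in Emerald-high cells, against 1244 and 1113 in Emerald-negative cells, for levels of 0.31 (0.18 to 0.44) and 0.13 (0.01 to 0.24). Levels above 0 were not limited to the interval: the window just before it, 8900001 to 10500000, had 0.33 in Emerald-high cells, against 0.23 in Emerald-negative cells. The 557 sites of the last 10 held 989 HpaII and 2957 MspI tags in Emerald-high cells, against 1147 and 2733 in Emerald-negative cells, for levels of -0.85 (-0.96 to -0.75) and -1.29 (-1.39 to -1.19). The split follows the position of Gm30645, which is not an edge of the cluster, and was made after the values had been seen.

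Both parts were also compared with sites of like spacing elsewhere. Isolated sites of the first 6 steps had levels of 0.51 in Emerald-high cells, against 0.31 in Emerald-negative cells. In 1284 other autosomal 0.6 Mb windows of similar CCGG density, the medians for isolated sites were -0.41 in Emerald-high cells, against -0.98 in Emerald-negative cells, and 98.4% and 98.8% of the windows lay below the first 6 steps. Most of these sites had whole tags, and at them alone the levels were 0.63 in Emerald-high cells, against 0.54 in Emerald-negative cells. Isolated sites of the last 10 steps, at -0.55 in Emerald-high cells, against -1.10 in Emerald-negative cells, lay near the middle of 777 other 1 Mb windows, with 46.7% and 52.8% of them lower. At whole-tag isolated sites of the last 10 steps the levels were -0.37 in Emerald-high cells, against -0.77 in Emerald-negative cells, with 72.5% and 82.4% of 774 windows lower. Over all classes the levels of the last 10 steps were low, with 2.19% and 1.93% of the windows lower. This rank compares unlike mixes of sites: the last 10 steps held no dense site, and 743 of the 777 windows had a larger dense share. Over the genome dense sites had levels of 1.75 in Emerald-high cells, against 2.47 in Emerald-negative cells. Sites with 2 to 4 CCGG within 500 bp were low there: -1.19 in Emerald-high cells, against -1.52 in Emerald-negative cells, with 3.22% and 5.02% of the windows lower, while in the first 6 steps the same class had 93.4% and 88.9% of the 0.6 Mb windows lower. These ranks are descriptions, with no test. Sites with 5 to 9 CCGG were not ranked. In the last 10 steps (63 sites) their levels were -1.23 in Emerald-high cells, against -1.34 in Emerald-negative cells. In the first 6 (12 sites) they were 0.27 in Emerald-high cells, against 1.10 in Emerald-negative cells. Over the genome this class had levels of 1.24 and 1.70.

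**Figure D2:**
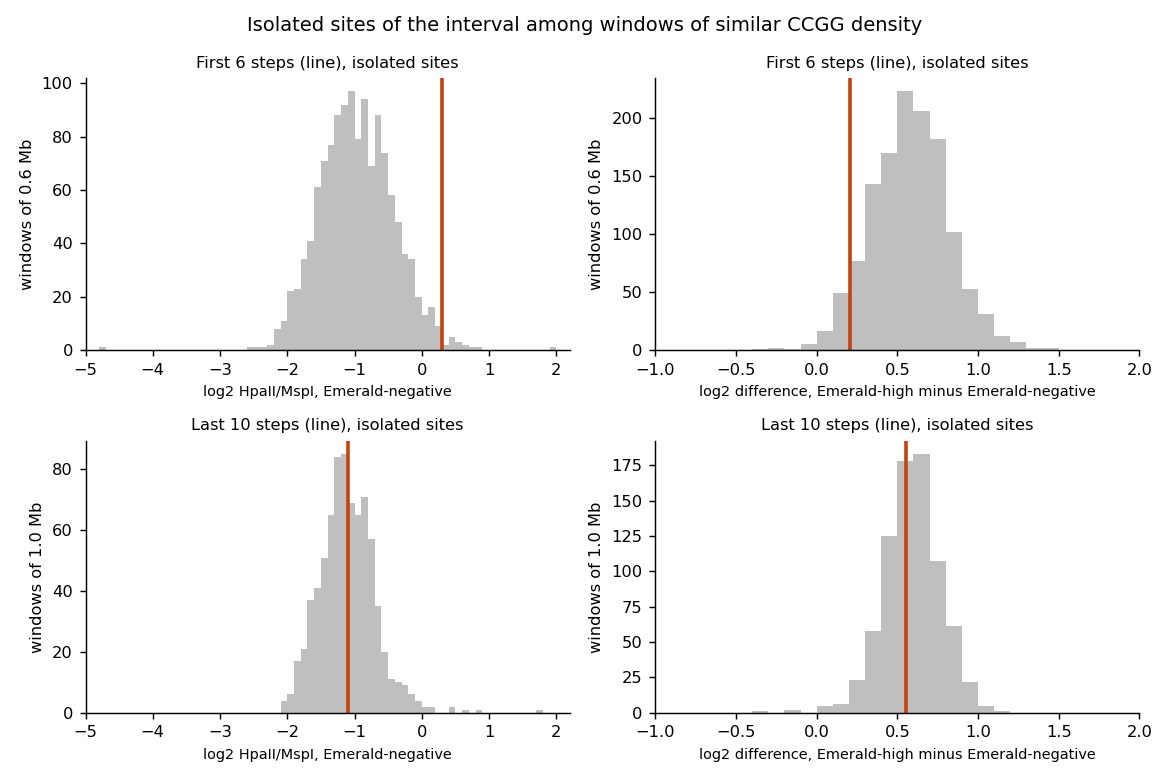
Number of autosomal windows (vertical axes) by the value of their isolated CCGG sites: log2 HpaII/MspI in Emerald-negative cells (left panels) and log2 difference, Emerald-high minus Emerald-negative (right panels). The line marks the first 6 steps (upper panels, 0.31 and 0.21) and the last 10 (lower panels, -1.10 and 0.55). The first 6 stand at the upper edge of the levels and toward the lower edge of the differences, and the last 10 near the middle of both.

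The difference between the fractions lay within the range of other windows. Over all its sites the interval's log2 difference of 0.29 was larger than that of 437 of 525 other autosomal 1.6 Mb windows of similar CCGG density (83.2%), whose median was 0.16. The interval had a smaller share of dense sites than 505 of these windows, and over the genome the log2 difference was -0.72 at dense sites and 0.48 at isolated ones. Within the isolated class the interval's log2 difference was 0.40, and 9.90% of the windows were lower, around a median of 0.58. Among sites with 2 to 4 CCGG it was 0.26, with 64.4% of the windows lower. The 75 sites with 5 to 9 CCGG went the other way, at -0.31 (-0.75 to 0.14), beside -0.46 for this class over the genome. Their value was -0.84 (-1.61 to -0.04) in the first 6 steps and 0.11 (-0.49 to 0.70) in the last 10. At isolated sites with whole tags (no fraction of a tag in any library) it was 0.26, with 1.53% of 524 windows lower. Sites without any tag count as whole-tag sites, and a whole count can still hold divided tags, since parts can add up to whole numbers. The rank of the interval thus depends on the class of site compared, and in the isolated class it was toward the low end. The MspI difference of 0.07 was larger than in 97.0% of the windows, and its part in these values was not tested.

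No step of the interval passed both limits of the call, an adjusted p under 0.05 by Fisher's exact test and a 2-fold difference. Over the genome 6.55% of 25529 bins of 100 kb were called higher in Emerald-high cells and 0.0196% lower. With the adjusted p alone, 2 of 16 steps passed, against 20.7% of all bins: step 10 at a log2 difference of 0.94 (0.47 to 1.41; adjusted p = 0.00089 by Fisher's exact test) and step 12 at 0.76 (0.29 to 1.25; adjusted p = 0.010 by Fisher's exact test). At whole-tag sites alone, the log2 difference was -0.82 (-2.72 to 1.00) in step 10, where 6 HpaII and 58 MspI tags remained in Emerald-high cells, against 9 and 29 in Emerald-negative cells, and 0.25 (-1.05 to 1.53) in step 12. The sign was also the other way at whole-tag sites in step 11 (-0.57, against 0.59 over all sites) and step 15 (-0.89, against 0.49). Steps 10 and 12 hold positions with the same shared tags, such as 11405341 and 11673932, so their results are not independent. With the unadjusted p, 4 of 16 steps passed, against 30.2% of all bins. This test compares the libraries and not the conditions. The log2 difference was above 0 in 15 of 16 steps (71.2% of all bins) and above the median of all bins, 0.26, in 10 of 16 (50% of all bins by construction). It lay between 0.15 and 0.94 in the last 10 steps, and between -0.20 and 0.40 in the first 6, where step 4 was the 1 step below 0. When the libraries were scaled to their dense sites instead of their totals, 10 of 16 steps and 48.2% of all bins were called higher in Emerald-high cells, so the count of called steps rests on the scaling. In 50 kb steps 1 of 32 was called, against 8.64% of all such bins.

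Summed over the last 10 steps, the log2 difference was 0.43 (0.29 to 0.58), with 0.54 for the HpaII libraries alone and 0.10 (0.03 to 0.18) for the MspI libraries. In the first 6 it was 0.19 (0.01 to 0.37), with -0.01 for MspI. The last 10 steps exceeded the first 6 by 0.25, with a counting SE of 0.12. At whole-tag sites the values were 0.16 for the last 10 and 0.12 for the first 6, a gap of 0.04 with a counting SE of 0.17. Among 777 other 1 Mb windows 95.4% had a smaller difference than the last 10 steps over all sites, 40.2% within the isolated class, 12.4% at isolated whole-tag sites and 74.8% among sites with 2 to 4 CCGG. The last 10 steps held no dense site, so the rank over all sites compares unlike mixes of sites.

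**Figure D3:**
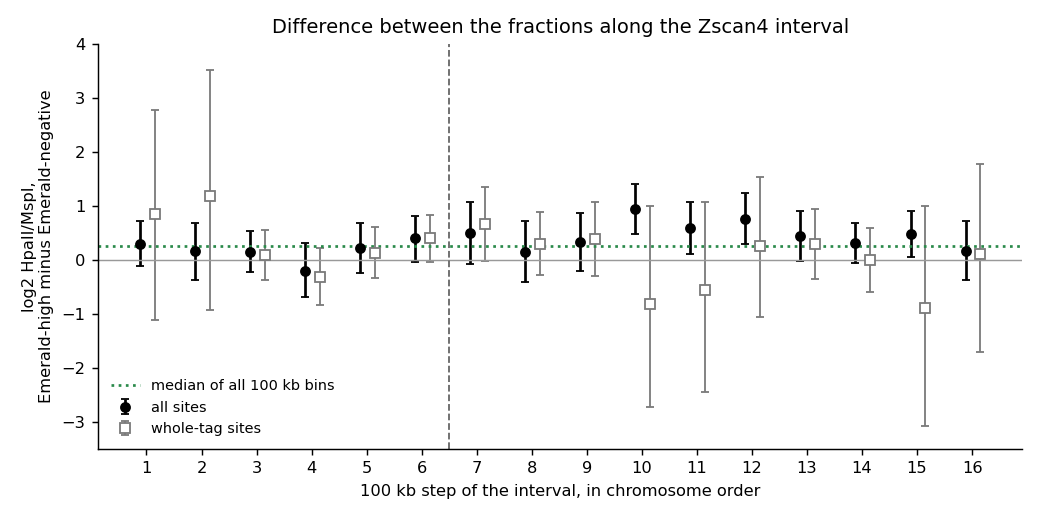
Log2 HpaII/MspI, Emerald-high minus Emerald-negative (vertical axis), in each 100 kb step (horizontal axis), over all sites and over sites with whole tags in all 4 libraries, with 95% counting intervals. The dotted line is the median of all 100 kb bins, 0.26. Steps 10 and 12 are highest over all sites, no whole-tag interval lies above 0, and steps 10, 11 and 15 are below 0 at whole-tag sites.

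Many sites of the interval carry fractions of a tag, the form a count takes when a read with more than 1 possible origin is split over them. A fraction in at least 1 library (over 0.01 tag from a whole number) was found at 249 of 804 sites, 30.97% (exact 95% interval 27.8% to 34.3%), against 3.07% of all sites. The median of the 525 windows was 1.94%, and 2 of them had a higher share. These sites, called shared-tag here, held 53.1% of the Emerald-high HpaII tags of the interval, 57.7% of the Emerald-high MspI tags, 47.6% of the Emerald-negative HpaII tags and 57.8% of the Emerald-negative MspI tags. They were concentrated at both ends of the interval. The shares were 60% and 46.9% in steps 1 and 2, between 3.77% and 27.3% in steps 3 to 9, and between 20% and 54.4% in steps 10 to 16.

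**Figure D4:**
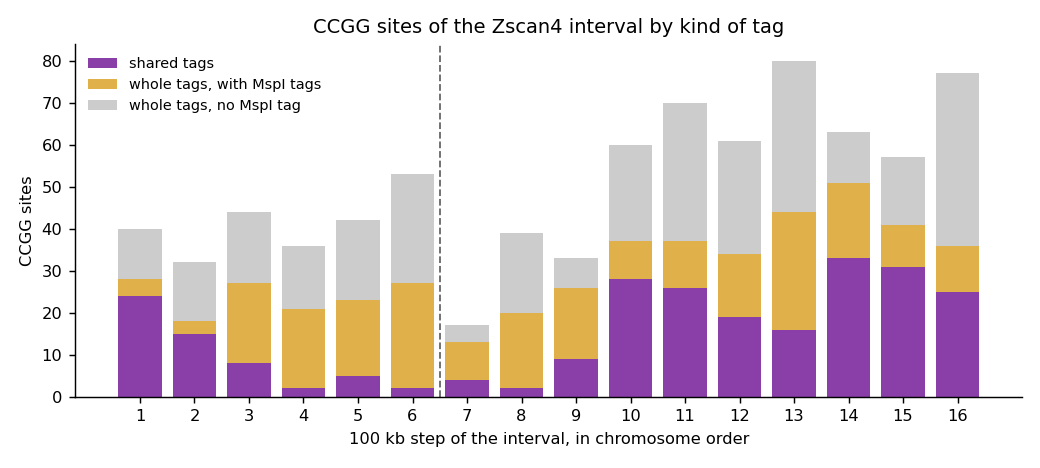
Number of CCGG sites (vertical axis) in each 100 kb step (horizontal axis) with shared tags, with whole tags and at least 1 MspI tag, and with no MspI tag and no shared tag. Shared-tag sites are most numerous in step 1 and in steps 10 to 16, with 33 in step 14 and 31 in step 15.

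In the last 10 steps the difference between the fractions was larger at the shared-tag than at the whole-tag sites. There, 193 shared-tag sites held 659 HpaII and 1917 MspI tags in Emerald-high cells, against 679 and 1762 in Emerald-negative cells, for a log2 difference of 0.60 (0.41 to 0.78). The 364 whole-tag sites held 330 HpaII and 1040 MspI tags in Emerald-high cells, against 468 and 971 in Emerald-negative cells, for a log2 difference of 0.16 (-0.09 to 0.40). The shared-tag value exceeded the whole-tag value by 0.44, with a counting SE of 0.15, while over all sites of the genome it did so by 0.04. Since 1 read can add parts to several positions, the shared-tag positions are not separate measurements. The counting intervals treat their summed parts as whole tags. The 2 kinds also differ in spacing: within the isolated class the log2 differences were 0.67 (0.42 to 0.92) at shared-tag and 0.40 (0.08 to 0.73) at whole-tag sites, and among sites with 2 to 4 CCGG they were 0.48 (0.20 to 0.77) and -0.02 (-0.47 to 0.42). The levels of the 193 shared-tag sites were -0.81 in Emerald-high cells, against -1.41 in Emerald-negative cells, and those of the whole-tag sites -0.93 and -1.09. In none of the 16 steps did the whole-tag counting interval lie above 0. Against 28 other 1 Mb windows with at least 0.5 times the shared-tag share, the difference of the last 10 steps, 0.43, had 2 (0.43 each) inside its counting interval of 0.29 to 0.58, and 26 lay below that interval.

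The positions that share tags link steps past the Gm30645 match to each other. Each position has 2 separate tag counts, and equal fractional counts in all 4 libraries (to 4 decimals, with tags in each) were taken as a shared set. The last 10 steps held 66 such sets, of which 57 recurred at another position of the genome, 46 of them within the last 10 steps and 17 in the 100 kb past the end. The first 6 steps held 49 sets, of which 46 recurred elsewhere, 38 of them in the 5 Mb of chromosome 7 before the interval and 1 within the first 6 steps. The parts thus shared tags with different places, and 2 sets joined them.

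Within the last 10 steps, 88 pairs of positions shared a set, at a median distance of 271 kb (16.7 to 641 kb). Within 10 kb of the GRCm38 distances between promoters, 16 of the 88 lay near that of Zscan4c and Zscan4f (392.2 kb) and 13 near that of Zscan4b and Zscan4d (261.1 kb). There were 5 near Zscan4b and Zscan4c (100.5 kb), 5 near Zscan4c and Zscan4d (160.6 kb), 4 near Zscan4d and Zscan4f (231.6 kb) and 0 near Zscan4b and Zscan4f (492.7 kb), and the other pairs lay at none of these distances. Whether the tagged positions lie at the same place within each copy was not tested. The files' build is not from the strain of these cells, so the number and order of the copies in MC1-ZE7 were not measured.

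**Figure D5:**
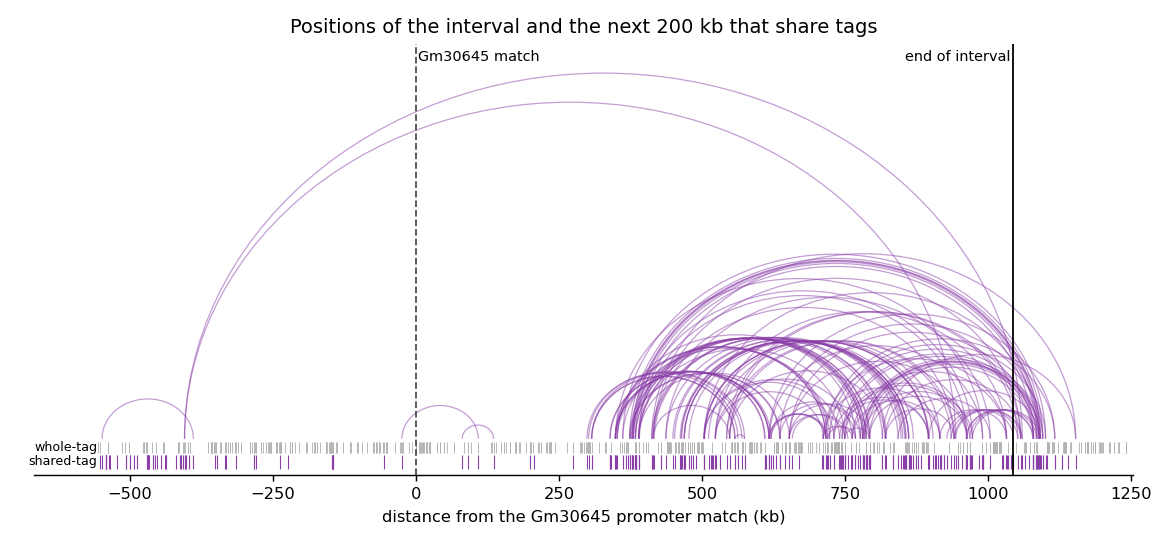
Positions that share tags (joined by arcs) against the distance from the Gm30645 promoter match in kb (horizontal axis), over the interval and the 200 kb past its end. The ticks below mark whole-tag and shared-tag CCGG sites, and the height of an arc only follows its span. Most arcs join positions past the match to each other, 2 pairs join the first 6 steps to the last 10, and 37 pairs join the last 10 steps to positions past the end.

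For single sites the angle score, 0 with no HpaII tag and 50 with equal scaled HpaII and MspI tags, was used at the 118 covered sites, those where both MspI libraries had 10 tags or more. The median score of the interval was 30.0 in Emerald-high cells, against 18.9 in Emerald-negative cells, beside 27.0 and 14.4 over all covered sites. In the first 6 steps (34 sites) the medians were 47.7 in Emerald-high cells, against 46.0 in Emerald-negative cells, and in the last 10 (84 sites) they were 24.5, against 11.97. At the 55 shared-tag sites of the last 10 steps the medians were 29.5 in Emerald-high cells, against 10.9 in Emerald-negative cells, and at the 29 whole-tag sites 13.8 and 18.6. Of these shared-tag sites 46 scored higher and 8 lower in Emerald-high cells, while of the whole-tag sites 12 scored higher and 15 lower. Over all covered sites it was higher in Emerald-high cells at 65.4%. The 118 sites hold 99 distinct sets of tag counts, so they are not all separate measurements.

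By Fisher's exact test, 1 of the 118 covered sites was called, higher in Emerald-high cells, while 0.102% of all covered sites were called higher and 0.0297% lower. It is the shared-tag site at chr7:11773197, in step 13, with 21.5 HpaII and 37.5 MspI tags in Emerald-high cells, against 8 and 53 in Emerald-negative cells. Its log2 difference was 2.69 (1.29 to 4.22; adjusted p = 0.025 by Fisher's exact test). This called site shared a part of its tags with 11405341 (step 10) and 11673932 (step 12), so they are not separate measurements. The unadjusted p was under 0.05 at 6 of the 118 sites, against 8.67% of all covered sites. With a minimum of 5 MspI tags no site of the interval was called (0.0258% of all sites tested), with a minimum of 20 there were 3 (1.23%), and scaled to dense sites there were 5 (4.15%).

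The site with the most HpaII tags in both fractions was the shared-tag site at 10521128 in step 1, with 62.2 HpaII and 32.3 MspI tags in Emerald-high cells, against 109.2 and 47.9 in Emerald-negative cells. It held 3.41% of the interval's HpaII tags in Emerald-high cells, against 4.57% in Emerald-negative cells, with scores of 80.6 and 73.1, so its HpaII tags stood above its MspI tags on the scaled counts in both. Among the best-covered positions of the last 10 steps, 11430264 (step 10) and 11692448 (step 12) had the same tags at each, 17.4 HpaII and 47.7 MspI in Emerald-high cells, against 15.9 and 39.5 in Emerald-negative cells, so they are 1 measurement. The site at 11525719 (step 11) had 4 HpaII and 31 MspI tags in Emerald-high cells, against 6.5 and 39.5 in Emerald-negative cells. The site at 11833229 (step 14) had 12.4 and 48.2 in Emerald-high cells, against 17.4 and 25 in Emerald-negative cells, a log2 difference of -0.67 (-2.10 to 0.72).

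The 3 whole-tag sites with the lowest difference, ranked with a pseudocount of 1 tag and printed without it, follow. The site at 10818734 (step 4) had 29 HpaII and 36 MspI tags in Emerald-high cells, against 79 and 23 in Emerald-negative cells, a log2 difference of -1.33 (-2.38 to -0.28). The site at 10918432 (step 5) had 13 and 25 in Emerald-high cells, against 30 and 13 in Emerald-negative cells, a log2 difference of -1.39 (-2.89 to 0.09). The site at 11271490 (step 8) had 1 and 22 in Emerald-high cells, against 6 and 17 in Emerald-negative cells, a log2 difference of -2.20 (-7.78 to 1.10). None of these was called. The 3 with the highest difference by the same ranking (10662715, 11617062 and 11628237) had no Emerald-negative HpaII tag and at most 3 in Emerald-high cells, too few for a fold.

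Shared-tag positions with equal tags in all 4 libraries were also summed. The covered sites hold 13 such groups, over 30 positions, 1 in the first 6 steps and 12 in the last 10. In 7 groups the sums were whole tags in all 4 libraries, and in 6 they kept a fraction, so tags there were divided with positions outside the group too. The log2 difference was above 0 in 13 of 13 (median 1.204, from 0.41 to 4.16), with a counting interval above 0 in 3, while the share of covered shared-tag sites with a higher score in Emerald-high cells was 68.1% over the genome. Whole-tag positions with equal tags in all 4 libraries were left out of these groups. Of these, 11388333 and 11658826 had a log2 difference of -0.93, and 11527008 and 11919050 had no HpaII tag in either fraction. The pair at 11405341 (step 10) and 11673932 (step 12), 268.6 kb apart, had 19 HpaII and 63 MspI tags over both positions in Emerald-high cells, against 2 and 70 in Emerald-negative cells, a log2 difference of 4.16 (2.00 to 7.35). The pair at 11440634 (step 10) and 11843555 (step 14), 402.9 kb apart, had 21 and 35 in Emerald-high cells, against 9 and 34 in Emerald-negative cells, a log2 difference of 1.94 (0.51 to 3.44). The 4 positions 11471367, 11604916, 11876968 and 11997120 (steps 10, 12, 14 and 15) had 29 and 44 in Emerald-high cells, against 22 and 70 in Emerald-negative cells, a log2 difference of 1.83 (0.79 to 2.88). Since equal counts chose these groups, they are given as a description with no test.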

How the data were processed

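The deposited files give, per the file headers and columns, estimated counts of tags at each CCGG position, in 2 parts and their sum, with fractions of a tag. The authors did not scale them to depth. Per the submitters' processing notes the build was mm9. The aligner, and how tags with multiple matches were handled, are not stated in the labels. Here tags were scaled to library totals. Counts in 100 kb bins (a minimum of 20 tags in both MspI libraries) and at sites (a minimum of 10) were rounded and compared by a two-sided Fisher's exact test, null odds set by library totals, with Benjamini-Hochberg adjustment over all bins or sites. A call needed an adjusted p under 0.05 and a 2-fold difference with a pseudocount of 1 tag. Intervals are 95%: exact conditional for differences, exact binomial for shares. Windows tile the 19 autosomes, with a CCGG count within 20%. The angle score is 100 × (2/π) × arctan(HpaII/MspI). Scripts were tested on simulated data. Alternatives covered scaling, site classes, whole tags, tag parts, bin sizes, minima and pseudocounts. Named sites were the 6 with most MspI tags, the 3 whole-tag sites with the largest and the 3 with the smallest difference, called sites and those with most HpaII tags; all 16 steps were named. The interval and alternatives were chosen with earlier results of these data known. Tools were numba 0.67.0, scipy 1.17.1, pandas 2.3.3 and numpy 2.4.6 under Python 3.11.15, with matplotlib 3.10.9 for figures.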

Additional observations from a re-analysis of the deposited data

How the results depend on the processing

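Of 91 values recomputed under alternatives, 53 stayed within the counting interval of the value or, for counts, within 1.5 times it, 35 moved outside with the same sign, and 3 changed sign: with whole-tag sites alone the log2 difference was -0.82 in step 10, -0.57 in step 11 and -0.89 in step 15. Scaling to dense sites moved the log2 difference to 1.01 for the interval and 1.16 for the last 10 steps, the levels to -2.18 in Emerald-high cells, against -3.19 in Emerald-negative cells, the median scores to 9.57 and 3.52, the steps called to 10 of 16 (48.2% of all bins) and the sites called to 5 (4.15% of all covered sites). With whole-tag sites alone the difference was 0.13 for the interval and 0.16 for the last 10 steps, the levels -0.28 in Emerald-high cells, against -0.41 in Emerald-negative cells, the Emerald-negative score 25.04, the sites called 0, the steps above the median of all bins 6 of 15, and the share of windows below 38.7% for the interval and 52.2% for the last 10 steps. With shared-tag sites alone the last 10 steps stood at 0.60. The share of windows below the interval was 71.8% with the first of the 2 tag parts alone, 9.90% for isolated sites, 64.4% for sites with 2 to 4 CCGG, 87.2% within 10% of the CCGG count, 74.3% with a like dense share and 87.5% with a like shared-tag share; for the last 10 steps it was 40.2% for isolated sites and 74.8% for sites with 2 to 4 CCGG. In 50 kb steps, 1 of 32 was called (8.64% of all such bins) and 19 lay above the median; in 200 kb steps, 4 of 7 did. The sites called were 0 with a minimum of 5 MspI tags (0.0258% of all sites tested) and 3 with 20 (1.23%). Fractions in all 4 libraries were held by 5.35% of sites. Alternatives for the last 10 steps and for each step were chosen after seeing the data. The causes were not tested. No paired analysis was possible because each fraction and enzyme had 1 library. Depth limits single sites: 118 of 804 were covered.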

Other observations

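The sharing of tags ran past the end of the interval. In the 100 kb after it, 28 of 75 sites (37.3%) were shared-tag, and in the next 3 steps of 100 kb the shares were 2.5%, 7.55% and 4.76%. That first step held 128 HpaII and 357 MspI tags in Emerald-high cells, against 143 and 288 in Emerald-negative cells, with levels of -0.75 and -1.04 and a log2 difference of 0.29. Adding it to the last 10 steps gave a difference of 0.42 (0.28 to 0.56).

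Spacing between CCGG sites also recurred. Runs of 4 sites whose 3 spacings were found again in the interval took in 104 of 557 sites of the last 10 steps (18.7%) and 20 of 247 sites of the first 6 (8.10%). Of the recurring sites of the last 10 steps 32.7% were shared-tag, and of its shared-tag sites 17.6% lay in such runs.

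Other windows rich in shared tags had differences of either sign. Of the 16 windows of 1.6 Mb with at least 0.5 times the shared-tag share of the interval, 2 had a larger difference. The window from 93700001 to 95300000 on chromosome 5 had levels of -0.47 in Emerald-high cells, against -0.89 in Emerald-negative cells, a log2 difference of 0.42, and that from 44100001 to 45700000 on chromosome 14 a difference of 0.32. The window richest in shared-tag sites, 144900001 to 146500000 on chromosome 4 (52.9%), had levels of 0.24 in Emerald-high cells, against 0.38 in Emerald-negative cells, a log2 difference of -0.14.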
